A study of Mus musculus with 12 samples.

Results

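The genes described here encode the constitutive proteasome, its activators, its assembly factors and the transcription factor Nfe2l1. They were taken by gene symbol from the deposited table of mouse embryonic fibroblast (MEF) RNA-seq values, and 41 of the 54532 genes in the table belong to the set. They comprise 7 alpha and 7 beta genes of the core particle, 6 ATPase genes (Psmc), 15 lid and base genes (Psmd and Adrm1), 2 activator genes (Psme3 and Psme4), 3 core assembly genes (Psmg1, Psmg2 and Pomp) and Nfe2l1. Values are FPKM, which count fragments per length of gene and per size of library. Heated CHIP-KO cells, unheated CHIP-KO cells, heated wild-type cells and unheated wild-type cells were sequenced, with 3 libraries for each of the 4 groups. CHIP-KO cells lack CHIP, the ubiquitin ligase and chaperone partner encoded by Stub1, and heat was 1 hour at 43 °C. The labels name all cells MEF and give neither the strain, nor the way the knockout was made, nor whether libraries came from separate cultures. The p values therefore measure the spread between these libraries, which may be technical.

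The proteasome is the protease that destroys proteins tagged with ubiquitin. Its barrel-shaped core particle holds the proteolytic sites inside, and the regulatory particle on its ends binds the tagged protein, removes the ubiquitin and threads the unfolded chain into the barrel with a ring of ATPases. Subunit genes are known to be transcribed in concert, and the factor NRF1 encoded by Nfe2l1 raises them when proteasome activity is short. Heat unfolds proteins and so bears on this route of disposal. How the transcripts of the machine itself respond to heat, and whether that depends on CHIP, is what the crossed design allows to be asked.

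Libraries held 15591924 to 26954112 fragments recovered from the table, and each of the 41 genes had from 350 to 14809 fragments in any library, so all passed the filter on low values. Stub1 stood at 1.17, 0.996 and 1.06 FPKM in heated CHIP-KO, against 54.4, 53.8 and 57.9 FPKM in heated wild type. Unheated libraries gave 1.17, 1.02 and 0.722 FPKM in CHIP-KO, against 64.1, 63.4 and 57.5 FPKM in wild type, so the genotype labels hold in every library. Both wild-type libraries numbered 1 stood apart from the other libraries of their groups, with limma library weights of 0.165 heated and 0.192 unheated, and the counts for the 41 genes are also given without both, with the genes whose call or value then moved. In the proteasome genes this was visible directly: the heated library numbered 1 was the lowest of its group in 36 of 41 genes, and the unheated one the highest of its group in 31 of 41. The same held for 45.5% and 46.3% of all genes. In CHIP-KO too, the heated library numbered 1 was the lowest in 26 of 41 genes and the unheated one the highest in 25 of 41. Over all genes these shares were 37.9% and 32.4%. The fibroblast markers Col1a1 and Vim were abundant, but of the 10 listed 3 were under 1 FPKM in all wild-type libraries and 1 in all CHIP-KO libraries. In unheated cells Dcn averaged 1.31 FPKM in CHIP-KO and 0.0153 FPKM in wild type, and Pdgfra 19.1 and 1.00 FPKM. Thy1 averaged 8.73 FPKM in heated CHIP-KO and 8.28 FPKM in unheated CHIP-KO, against 0.0259 FPKM in heated wild type and 0.00524 FPKM in unheated wild type. All 4 epithelial and all 3 endothelial markers were under 1 FPKM in each library. A bulk level cannot tell a change per cell from a change in which cells are present.

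The genes of the set span a wide range of levels. Averaged over the 12 libraries, the core gene Psmb4 was highest at 129 FPKM, followed by the base scaffold gene Psmd2 at 125 FPKM and Psmb5, which encodes the chymotrypsin-like proteolytic subunit, at 116 FPKM. The other proteolytic subunit genes, Psmb6 for the caspase-like and Psmb7 for the trypsin-like site, averaged 94.9 and 36.3 FPKM. The lowest were Psmd9 and Psmd5, which encode chaperones of base assembly and no part of the finished particle, at 7.71 and 11.4 FPKM. Within the core, whose subunits enter the particle in equal number, the highest gene stood 4.54 to 5.54 times above the lowest in each library on this scale per length. On GRCm38, Psmd2 lies at chr16:20651652-20663414 on the plus strand, Psmc4 at chr7:28041707-28050101 on the minus strand, Psma2 at chr13:14613240-14674236 on the plus strand and Nfe2l1 at chr11:96817414-96829968 on the minus strand. Levels per length depend on the gene length used for scaling, so these ratios between genes hold for the deposited lengths only.

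Promoter sequences were examined because most of these genes moved together. RefSeq promoter windows on GRCm38.p6, from 250 bases before to 50 after a transcription start, were found for 34 of the 41 genes, 40 windows in all. Each window was searched on both strands for TGANNNNGC, the core of the antioxidant response element through which NRF1 and its relatives bind. This motif was in 62.5% of the 40 windows and in 41.3% of all 32851 windows, where the median GC content was 60.5% and 52.7%. The heat shock element cores GAANNTTC and TTCNNGAA were in 2.5% and 5.0% of the windows, against 7.86% and 8.52% of all. CCAAT was in 42.5%, against 37.4%. Nfe2l1 has several windows, some overlapping, all with TGANNNNGC and most with CCAAT, so it weighs more than other genes in these shares. Counted by gene, TGANNNNGC was in 58.8% and CCAAT in 41.2% of the 34 genes, and no share by gene was taken over all windows. Matches of both heat shock cores can overlap each other, and a match describes letters only. Windows are printed for Psmb5 and Psmb6, which hold the motif and encode proteolytic subunits, for Psmc4, an ATPase gene with a large difference between genotypes in its heat change, and for Psma2, the core gene that passed as higher in unheated CHIP-KO. The first is chr14:54617946-54618245 on the minus strand, then chr11:70525107-70525406 on the plus strand, chr7:28050043-28050342 on the minus strand and chr13:14612992-14613291 on the plus strand. Capitals mark TGANNNNGC, and Psmc4 and Psma2 have no such match.
Psmb5: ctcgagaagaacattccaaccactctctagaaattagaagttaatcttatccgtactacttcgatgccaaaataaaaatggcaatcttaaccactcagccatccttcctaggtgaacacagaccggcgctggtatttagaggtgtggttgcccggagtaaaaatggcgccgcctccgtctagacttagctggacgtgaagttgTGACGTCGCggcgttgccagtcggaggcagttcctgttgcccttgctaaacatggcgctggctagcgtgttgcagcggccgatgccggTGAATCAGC
Psmb6: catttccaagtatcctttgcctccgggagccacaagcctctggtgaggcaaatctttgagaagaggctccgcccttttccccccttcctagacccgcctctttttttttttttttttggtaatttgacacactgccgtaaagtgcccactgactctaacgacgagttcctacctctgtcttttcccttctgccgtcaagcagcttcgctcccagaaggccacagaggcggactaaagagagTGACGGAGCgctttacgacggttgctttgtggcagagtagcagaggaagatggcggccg
Psmc4: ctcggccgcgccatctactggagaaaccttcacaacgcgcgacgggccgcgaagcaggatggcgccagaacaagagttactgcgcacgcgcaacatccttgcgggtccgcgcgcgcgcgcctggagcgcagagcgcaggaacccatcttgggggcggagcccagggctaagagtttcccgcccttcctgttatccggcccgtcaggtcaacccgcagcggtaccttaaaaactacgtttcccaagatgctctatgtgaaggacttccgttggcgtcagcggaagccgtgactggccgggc
Psma2: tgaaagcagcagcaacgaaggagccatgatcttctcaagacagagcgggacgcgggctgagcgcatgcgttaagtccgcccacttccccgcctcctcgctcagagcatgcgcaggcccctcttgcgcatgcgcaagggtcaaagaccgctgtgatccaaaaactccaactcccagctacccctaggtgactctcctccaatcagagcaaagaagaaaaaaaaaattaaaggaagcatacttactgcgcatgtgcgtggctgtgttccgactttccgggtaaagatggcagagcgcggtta
The 20 genes with the motif in a window and the 14 without are set side by side here without a test. In wild-type heat the median log2 change was -0.52 with and -0.63 without it, and for unheated CHIP-KO against wild type it was -0.37 with and -0.36 without. For the interaction it was 0.58 with and 0.71 without.

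**Figure D1:**
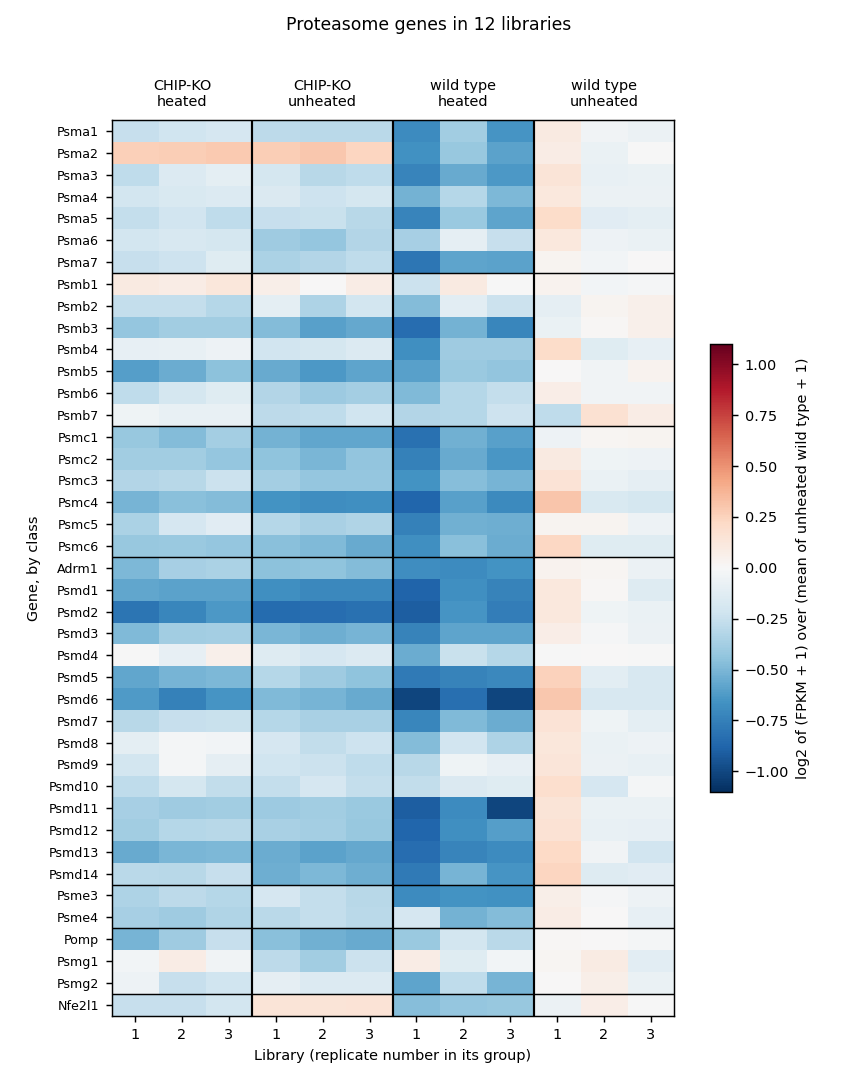
Each row is 1 of the 41 genes, grouped by class, and each column is 1 of the 12 libraries. Color gives the log2 ratio of FPKM + 1 to the unheated wild-type mean + 1. Heated wild-type columns are the darkest blue in most rows, CHIP-KO columns are paler blue whether heated or not, Psma2 is red in all CHIP-KO columns, and Nfe2l1 is pale red in unheated CHIP-KO.

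In wild-type cells heat lowered nearly the whole set. Of 41 genes 37 fell and 0 rose, where 30.5% of the 13023 genes tested fell and 28.1% rose (58.7% in all), and the median log2 change was -0.56 against -0.016 over all genes. In 36 of 41 genes every heated library lay below every unheated one, which held for 31.1% of all genes, and in 0 above, which held for 29.3%. All 7 alpha genes, all 6 ATPase genes, 6 of 7 beta genes, 13 of 15 lid and base genes, both activator genes, 2 of 3 assembly genes and Nfe2l1 fell. The medians ran from -0.68 for lid and base and -0.62 for the ATPases to -0.56 for alpha, -0.35 for beta and -0.30 for assembly genes, and differences between classes were not tested.

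Psmd6 and Psmd11, both lid subunit genes, had the largest falls. Psmd6 stood at 26.1, 29.8 and 26.1 FPKM in heated wild type, against 66.1, 47.4 and 47.2 FPKM in unheated wild type. The heated mean was 50.95% of the unheated mean, a log2 change of -0.93 (SE 0.112, adjusted p = 3.57e-05). The groups did not overlap, and the unheated library numbered 1 was far above the others of its group. Psmd11 stood at 12.6, 14.8 and 11.8 FPKM in heated wild type, against 27.3, 23.3 and 23.3 FPKM in unheated wild type, a log2 change of -0.87 (adjusted p = 5.64e-06). Without both wild-type libraries numbered 1 the changes were -0.74 for Psmd6 and -0.77 for Psmd11, so their order turned. Psmd2 stood at 96.5, 115.5 and 107 FPKM heated, against 196, 175 and 173 FPKM unheated. These values for Psmd2 leave a wide gap between the groups, with a log2 change of -0.77 (SE 0.0751, adjusted p = 8.37e-06).

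Among the ATPases, which unfold the substrate, Psmc4 had the largest change at -0.70 (SE 0.115, adjusted p = 3.37e-04). It stood at 31.8, 38.8 and 36.0 FPKM in heated wild type, against 73.0, 52.4 and 51.6 FPKM in unheated wild type. Without both wild-type libraries numbered 1 the change in Psmc4 was -0.47 (adjusted p = 2.47e-05), over 1.5 times smaller. Psmc1 changed by -0.65, and by -0.59 without those libraries. The other 4 ATPase genes changed by -0.54 to -0.64.

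In the core, Psma7 and Psma3 had the largest falls of the alpha ring, which gates the barrel, at -0.65 and -0.63. Psmb3, a structural beta gene, had the largest of the beta ring at -0.69 (adjusted p = 1.74e-05). The 3 proteolytic genes fell less: Psmb5 by 0.48, Psmb6 by 0.35 and Psmb7 by 0.27 on the log2 scale (adjusted p = 5.83e-05, 8.60e-04 and 0.0250). Psmb5 stood at 99.3, 113 and 112 FPKM in heated wild type, against 151, 147 and 155 FPKM in unheated wild type, with no overlap. Psmb1, a further beta gene, did not pass (log2 change -0.046, adjusted p = 0.615), at 45.0, 57.3 and 53.2 FPKM heated, against 54.9, 52.0 and 52.9 FPKM unheated.

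Genes for ubiquitin handling on the regulatory particle were among those that fell. Adrm1, a ubiquitin receptor, averaged 20.8 ± 0.301 FPKM in heated and 33.8 ± 1.25 FPKM in unheated wild type (SD, n = 3 each), a log2 change of -0.68 (adjusted p = 1.01e-06). Psmd14, the deubiquitinase of the lid, averaged 37.7 ± 3.597 FPKM heated and 59.3 ± 9.21 FPKM unheated, at -0.63. Psmd4, another ubiquitin receptor gene, changed by -0.37. Of the base assembly chaperones Psmd5 fell by 0.73, while Psmd9 at -0.14 and Psmd10 at -0.18 did not pass (adjusted p = 0.154 and 0.0837). Pomp, the maturation factor of the core, fell by 0.30. Psmg2, which pairs with Psmg1 to guide the alpha ring, fell by 0.45, and Psmg1 itself did not pass at -0.024 (adjusted p = 0.799).

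Psme3, which encodes the nuclear activator PA28 gamma, fell by 0.67 (SE 0.0486, adjusted p = 9.24e-07), with 32.8, 33.7 and 33.4 FPKM in heated wild type, against 56.3, 53.1 and 51.8 FPKM in unheated wild type. Psme4, encoding the activator PA200, changed by -0.39. Without both wild-type libraries numbered 1, 36 of 41 genes fell and the median log2 change of the set was -0.45. Over all genes 29.6% fell and 28.0% rose in that fit. Psma6 was then no longer called (-0.12, adjusted p = 0.101, against -0.24 with all libraries), and the falls of Psmb4 and Psmd8 were over 1.5 times smaller (-0.28 against -0.48, and -0.21 against -0.34). Psmd9 was then at 0.0048. With the 6 wild-type libraries fitted alone, 34 genes fell, where 24.4% of all genes fell and 23.6% rose. Mesothelial markers moved in the same comparison: the 5 genes summed to 8.82 to 10.3 FPKM in heated wild type and 42.1 to 46.3 FPKM in unheated wild type, nearly all from Msln and Krt19, with Wt1 and Lrrn4 at 0 in both. Fibroblast markers summed to 2591 to 2910.0 FPKM heated and 1617 to 1975 FPKM unheated. These sums came mostly from Col1a1, Fn1 and Vim, of which Vim averaged 525 FPKM heated and 599 FPKM unheated. Immune markers, of which Cd68 was the 1 that passed the filter, summed to 12.3 to 15.4 FPKM heated and 1.86 to 2.98 FPKM unheated. The part of these markers in the result was not tested.

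**Figure D2:**
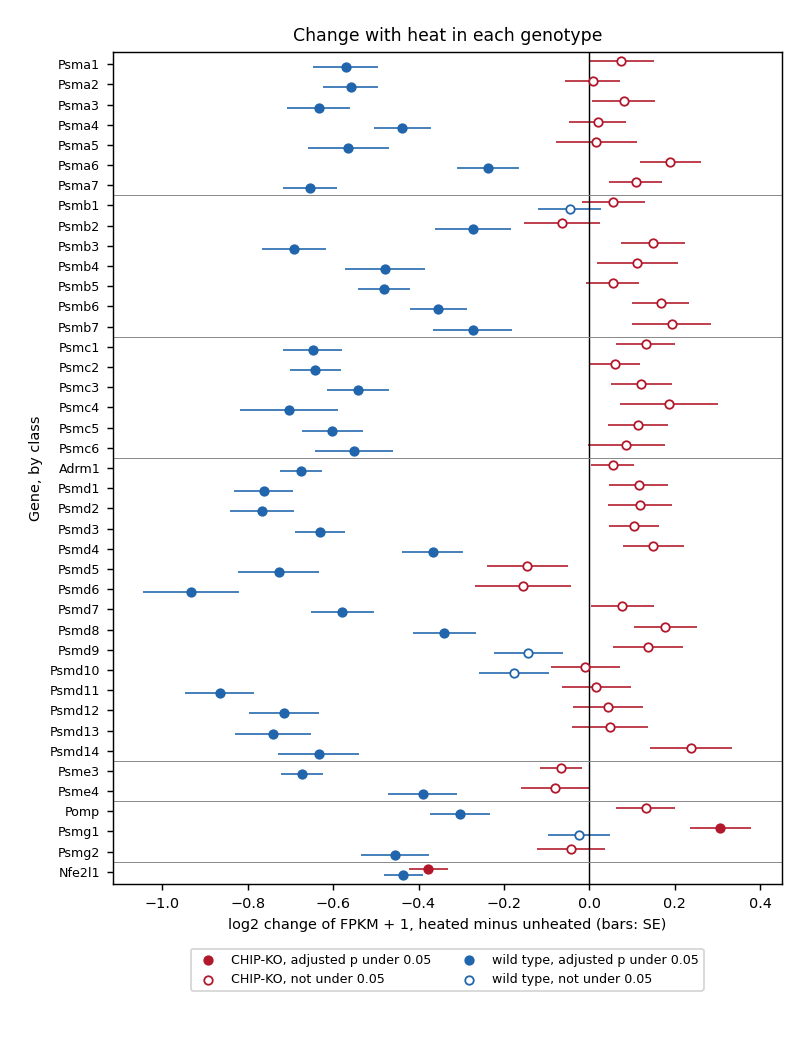
Points give the log2 change of FPKM + 1, heated minus unheated, for each gene in CHIP-KO (red) and wild type (blue), with limma SE bars. Filled points passed at adjusted p under 0.05. Blue points lie left of 0 in all 41 genes, and red points cluster at or just right of 0 except Nfe2l1, which lies near -0.4 in both.

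CHIP-KO cells did not show this fall. Of the 41 genes 1 rose and 1 fell with heat, where 8.65% of all genes tested rose and 11.4% fell (20.0% in all), and 39 did not pass. The median log2 change of the set was 0.080, against -0.0018 over all genes. The gene that rose was Psmg1, at 16.3, 17.7 and 16.2 FPKM in heated CHIP-KO, against 13.5, 12.6 and 14.01 FPKM in unheated CHIP-KO. Its groups did not overlap, and the log2 change was 0.31 (SE 0.0724, adjusted p = 0.0132). The gene that fell was Nfe2l1.

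The small differences of the other genes had mostly 1 sign. In 22 of 41 genes every heated CHIP-KO library lay above every unheated one, which held for 22.8% of all genes, and in 4 of 41 below, which held for 25.9%. Psmd14 stood at 48.0, 47.8 and 49.4 FPKM in heated CHIP-KO, against 40.5, 41.7 and 40.4 FPKM in unheated CHIP-KO, without overlap but short of the threshold (log2 change 0.24, SE 0.0957, adjusted p = 0.106). Psmc4 at 0.19, Psma6 at 0.19, Psmb7 at 0.19, Psmd8 at 0.18, Psmb6 at 0.17 and Psmb3 at 0.15 likewise did not pass. Psmd5 and Psmd6 were lower in every heated library, at -0.15 and -0.16, and did not pass either.

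How many genes passed in CHIP-KO depended on the spread used. CHIP-KO libraries were tightly spaced, with a median coefficient of variation over the 41 genes of 2.47% heated and 2.38% unheated, against 8.28% in heated and 7.51% in unheated wild type. With the CHIP-KO libraries fitted alone, 13 genes rose and 2 fell, and without both wild-type libraries numbered 1, 11 rose and 3 fell. The shares over all genes also went up in those fits, to 14.1% higher and 17.0% lower with the CHIP-KO libraries alone, and 15.4% higher and 18.5% lower without both wild-type libraries. Those fits leave the CHIP-KO values as they are and change only the estimate of the spread. Scaling to an equal sum per library turned the direction: 0 rose and 36 fell at a set median of -0.25, while that scaling moved the median of all genes to -0.29. With that scaling 4.35% of all genes rose and 62.6% fell. Relative to all genes the set then stood 0.04 higher.

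The interaction is the heat change in CHIP-KO minus that in wild type. It was positive, meaning a more positive change in CHIP-KO, in 35 of 41 genes and negative in 0, where 17.9% of all genes were positive and 17.3% negative (35.2% in all), with a set median of 0.61 against -0.0029 over all genes. All 7 alpha, 5 of 7 beta, all 6 ATPase, 13 of 15 lid and base, all 3 assembly genes and Psme3 passed. Mesothelial markers moved the same way, with both tested genes positive (median 2.43), and of 9 fibroblast markers 1 was positive and 5 negative (median -0.52). Their part in the result was not tested. The 6 that did not pass were Psmb1, Psmb2, Psmd9, Psmd10, Psme4 and Nfe2l1. Without both wild-type libraries numbered 1, 36 genes passed at a set median of 0.51, Psme4 being the 1 gained (0.37, adjusted p = 9.87e-04). The shares over all genes also went up in that fit, to 20.2% positive and 19.1% negative.

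Psmc4 had an interaction of 0.89 (SE 0.163, adjusted p = 0.00161), from 40.98, 42.5 and 42.2 FPKM in heated CHIP-KO, against 37.1, 36.3 and 36.7 FPKM in unheated CHIP-KO, beside the wild-type fall given above. Without both wild-type libraries numbered 1 Psmc4 was at 0.65 (adjusted p = 3.57e-05), below Psmb3 at 0.81, Psmd11 at 0.79 and Psmd2 at 0.76, so its place at the top of the set rested on them. With all libraries Psmd2 and Psmd11 stood at 0.88 each, Psmd1 at 0.88 and Psmd14 at 0.87. In the core Psmb3 stood at 0.84, Psma7 at 0.76, Psma3 at 0.71 and Psmb4 at 0.59, of which Psmb4 was over 1.5 times smaller without those libraries (0.39). The proteolytic genes Psmb5, Psmb6 and Psmb7 had 0.53, 0.52 and 0.47, and Pomp and Psmg2 0.44 and 0.41. For Psmg1 the interaction of 0.33 came with a rise in CHIP-KO and no called change in wild type (adjusted p = 0.0276).

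Without heat, CHIP-KO cells already held less proteasome transcript than wild type. Of 41 genes 34 were lower and 2 higher in unheated CHIP-KO, where 24.5% of all genes were lower and 23.9% higher (48.5% in all), with a set median log2 change of -0.34 against -0.012. All 6 ATPase genes and 14 of 15 lid and base genes were lower. Every CHIP-KO library lay below every wild-type one in 37 of 41 genes and above in 2, which held for 31.1% and 30.1% of all genes. Since the unheated wild-type libraries enter the heat comparison, the interaction and this comparison alike, these results are not independent of one another. With both wild-type libraries numbered 1 left out, 34 genes were lower and 2 higher at a median of -0.30. Over all genes 25.7% were lower and 26.1% higher in that fit. Psma4 then lost its call (-0.13, adjusted p = 0.0666) and Psmb2 and Psmd4 gained one (-0.26 and -0.16). Over 1.5 times apart were Psma5 (-0.15 against -0.26 with all libraries), Psmd5 (-0.24 against -0.37) and Psmb7 (-0.38 against -0.25). Fibroblast markers summed to 3356 to 3545 FPKM in unheated CHIP-KO and 1617 to 1975 FPKM in unheated wild type, and their part in the result was not tested.

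Psmd2 had the largest difference at 101, 101 and 102 FPKM in unheated CHIP-KO, against 196, 175 and 173 FPKM in unheated wild type. CHIP-KO stood at 55.8% of wild type, a log2 change of -0.83 (SE 0.0751, adjusted p = 4.49e-06). Psmd1, the other large base scaffold gene, stood at 60.9% (log2 change -0.69). Psmc4 was at -0.65 and Psmc1 at -0.55 among ATPases, Psmb5 at -0.59 and Psmb3 at -0.54 among beta genes, and Psma6 at -0.38 and Psma7 at -0.31 among alpha genes. Pomp was at -0.52 and Psmg1 at -0.30 among assembly genes, and Psme4 at -0.28 and Psme3 at -0.25 among activators. Psmb5 stood at 103, 96.98 and 100.5 FPKM in unheated CHIP-KO, far under the 147 to 155 FPKM of unheated wild type. Psmd10, known also as the oncoprotein gankyrin, was lower by 0.23, a call lost without both wild-type libraries numbered 1 (log2 change -0.13, adjusted p = 0.0653).

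Psma2, an alpha ring gene, went the other way. It stood at 56.3, 57.2 and 54.8 FPKM in unheated CHIP-KO, against 49.1, 44.1 and 46.2 FPKM in unheated wild type, with no overlap. The log2 change of 0.27 (SE 0.0642, adjusted p = 0.00515) contrasts with -0.19 to -0.38 in the other 6 alpha genes. After heat it stood at 56.0, 56.3 and 56.9 FPKM in CHIP-KO, against 28.8, 34.5 and 30.5 FPKM in wild type, 180.3% of wild type and the largest difference in the set (log2 change 0.83, adjusted p = 1.66e-06). The gene AW209491 overlaps Psma2 on the same strand, was also higher in CHIP-KO (log2 change 0.36 unheated and 0.53 heated) and averaged 4.54 FPKM in heated CHIP-KO, 5.03 FPKM in unheated CHIP-KO, 2.85 FPKM in heated wild type and 3.69 FPKM in unheated wild type. How reads between them were counted is not given in the sources used here, so the split of reads is uncertain.

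After heat the order of the genotypes was reversed. Of 41 genes 24 were higher in heated CHIP-KO and 0 lower, where 23.3% of all genes were higher and 19.1% lower (42.4% in all), with a set median of 0.25 against 0.013. In 30 of 41 genes every heated CHIP-KO library lay above every heated wild-type library, which held for 27.7% of all genes, and in 0 below, which held for 22.7%. In the fit without both wild-type libraries numbered 1, 30 genes were higher at a median of 0.20. The shares over all genes also went up in that fit, to 27.6% higher and 22.3% lower. Psmb7, Psmc4, Psmd5, Psmd6, Psmd13 and Psme4 were then called in addition, and Psmc1 stood at 0.14, against 0.22 with all libraries. Mesothelial markers summed to 51.0 to 52.0 FPKM in heated CHIP-KO and 8.82 to 10.3 FPKM in heated wild type. In the same groups fibroblast markers summed to 3872 to 4100.0 and 2591 to 2910.0 FPKM. These fibroblast markers did not move as 1: of 9 tested, 5 were higher in heated CHIP-KO and 2 lower. Col1a1 and Col1a2 were among the higher (log2 change 0.69 and 3.31), and Col3a1 and Pdgfrb were the lower (-0.53 and -0.24). The part of the mesothelial and fibroblast markers in the result was not tested. After Psma2 the largest differences were those of Psmd11 at 0.49, Psma3 at 0.46, Psma7 at 0.45 and Psmb4 at 0.41. Psmd12 and Psmc5 each stood at 0.38 and Psme3 at 0.36. Psmb5 did not differ past the threshold (log2 change -0.054, SE 0.0616), at 99.0, 103 and 109.9 FPKM in heated CHIP-KO, against 99.3, 113 and 112 FPKM in heated wild type, and neither did Pomp at -0.080 or Psmd2 at 0.051. For Psmb5 and Psmd2 the level in heated wild type lay close to that of CHIP-KO in either treatment. Pomp averaged 18.58 FPKM in heated wild type, close to 17.55 FPKM in heated CHIP-KO but above 15.89 FPKM in unheated CHIP-KO. The ubiquitin-handling genes Psmd4 and Psmd14 were each higher by 0.36, and Adrm1 by 0.27.

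**Figure D3:**
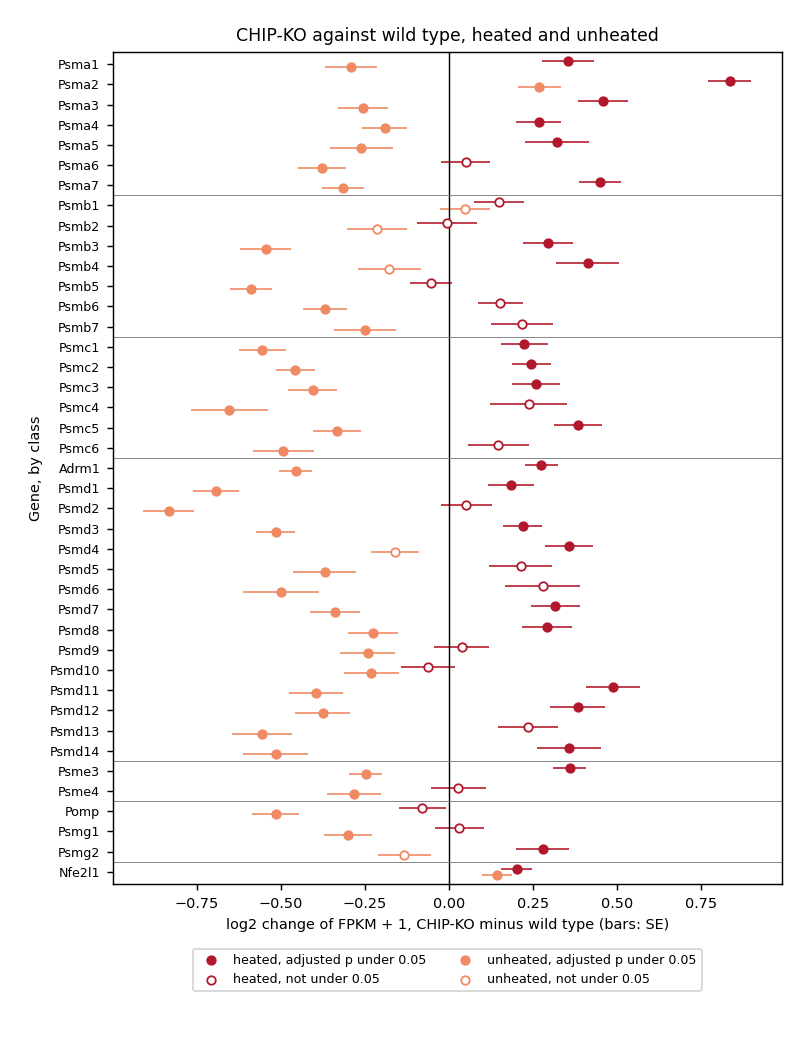
Points give the log2 change of FPKM + 1, CHIP-KO minus wild type, for each gene in heated cells (dark red) and unheated cells (orange), with limma SE bars. Filled points passed at adjusted p under 0.05. Orange points lie left of 0 except Psma2, Psmb1 and Nfe2l1, and most dark red points lie right of 0.

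The sequence of calls over the 5 comparisons was shared by many genes. In 19 genes, among them 5 alpha genes, Psmb3, 4 ATPase genes and Psme3, the transcript fell with heat in wild type alone, was lower in unheated and higher in heated CHIP-KO, and had a positive interaction. A further 11 genes, among them Psmb5, Psmb6, Psmb7, Psmc4, Psmd2 and Pomp, had the same calls but no called difference after heat. Psmb4, Psmd4 and Psmg2 had these calls except that their unheated difference did not pass (-0.18, -0.16 and -0.13), although every unheated CHIP-KO library lay below every unheated wild-type one. Psmb1 alone passed in no comparison. The summed FPKM of the 14 core genes ran from 957 to 993 in heated CHIP-KO, 902 to 936 in unheated CHIP-KO, 751 to 897 in heated wild type and 1088 to 1175 in unheated wild type. For the 21 ATPase, lid and base genes the sums were 969.7 to 1028, 924 to 943, 766 to 894 and 1230 to 1427 FPKM in the same groups. The ratio of the core sum to the other sum was 0.966 to 0.987 in heated CHIP-KO, 0.977 to 1.00 in unheated CHIP-KO, 0.980 to 1.00 in heated wild type and 0.824 to 0.898 in unheated wild type. The 3 unheated wild-type libraries thus lay below the other 9 in this ratio, a difference that was not tested.

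**Figure D4:**
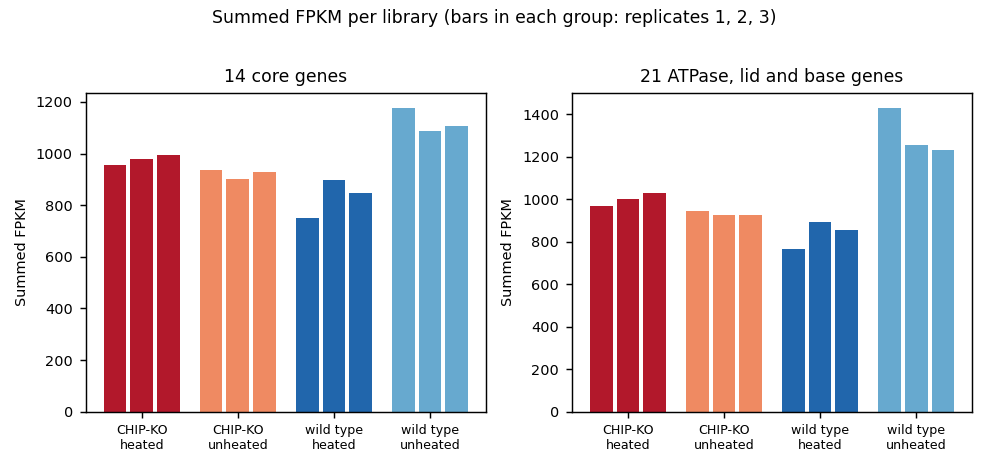
Bars give the summed FPKM of the 14 core genes (left) and of the 21 ATPase, lid and base genes (right) in each of the 12 libraries, in replicate order within a group. Unheated wild-type bars are the tallest in both panels, and the CHIP-KO bars differ little with heat.

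Nfe2l1 followed the subunit genes in some comparisons only. It stood at 61.4, 61.5 and 63.6 FPKM in heated CHIP-KO, against 80.8, 80.8 and 81.4 FPKM in unheated CHIP-KO, a log2 change of -0.38 (SE 0.0459, adjusted p = 3.61e-04). In wild type it stood at 52.6, 54.5 and 54.7 FPKM heated, against 70.0, 77.0 and 73.0 FPKM unheated, a log2 change of -0.44 (adjusted p = 1.46e-05). It thus fell in both genotypes, with no overlap between heated and unheated libraries, and the interaction of 0.059 (SE 0.0649, adjusted p = 0.518) did not pass. CHIP-KO was higher than wild type both unheated (log2 change 0.14, adjusted p = 0.0241) and heated (0.20, adjusted p = 0.00456), while 34 of the other 40 genes were lower in unheated CHIP-KO. In heated CHIP-KO 23 of the other 40 genes were higher too, where 23.3% of all genes were. RNA levels do not report the cleavage and nuclear entry of NRF1, by which it is known to be controlled.

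**Figure D5:**
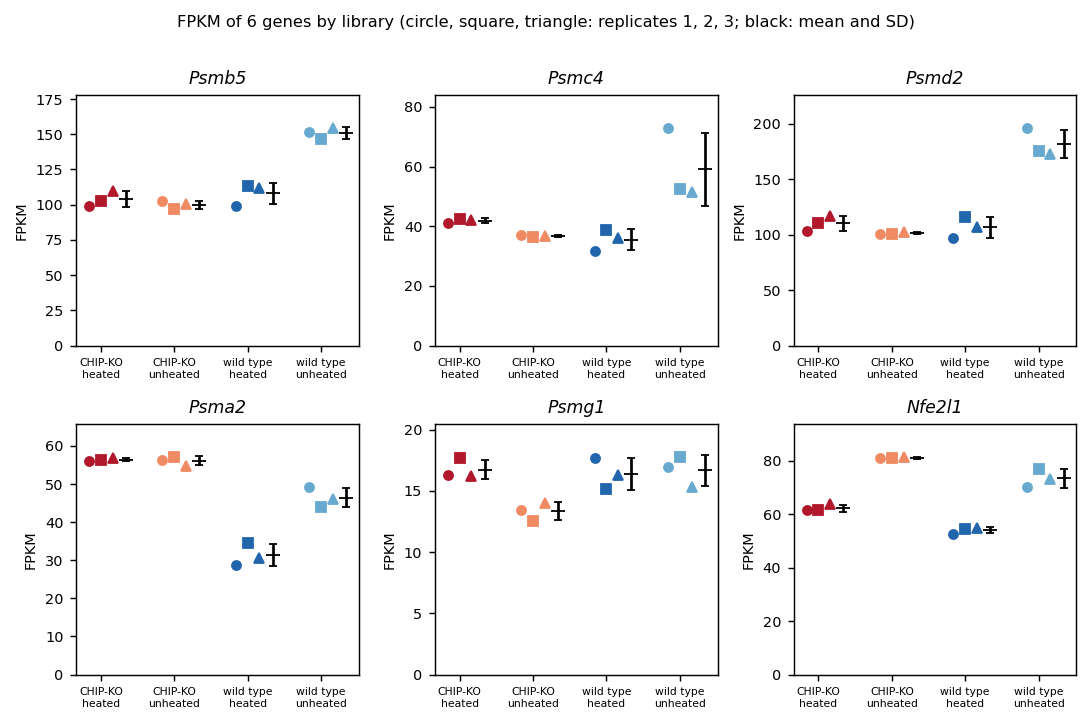
FPKM of 6 genes in each library, by group, with replicate numbers as symbols and the mean and SD in black. Psmb5, Psmc4 and Psmd2 are high in unheated wild type alone, Psma2 is lowest in heated wild type, Psmg1 is lowest in unheated CHIP-KO, and Nfe2l1 is lower in the heated group of both genotypes.

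Genes around the pathway gave mixed counts. A list of 12 genes held those that process NRF1 or pair with it, its relatives Nfe2l2 and Nfe2l3, and the Nfe2l2 inhibitor gene Keap1. Of these 12, 4 rose and 4 fell with heat in wild type, and 3 rose and 3 fell in CHIP-KO. The interaction was positive in 1, Keap1, and negative in 2, Nfe2l2 and Nfe2l3. Over all genes 28.1% rose and 30.5% fell in wild type, 8.65% and 11.4% in CHIP-KO, and 17.9% had a positive and 17.3% a negative interaction, so the wild-type and interaction counts lie near those shares. The small Maf partners Maff and Mafk rose with heat in both genotypes, by 1.54 and 0.91 in CHIP-KO and by 1.58 and 0.97 in wild type on the log2 scale. In both genotypes the heated library numbered 1 was the highest for each of these genes. Without it Maff was at 1.22 in CHIP-KO and 1.16 in wild type. Mafk without it was at 0.69 in CHIP-KO, no longer called (adjusted p = 0.119), and at 0.59 in wild type (adjusted p = 0.0124). Sel1l, of the ER degradation complex that handles NRF1, averaged 11.1 FPKM in heated and 16.9 FPKM in unheated CHIP-KO, and 10.9 FPKM in heated and 18.5 FPKM in unheated wild type. The relative Nfe2l3 had an interaction of -0.85, at 5.46 FPKM in heated and 5.17 FPKM in unheated CHIP-KO, and 2.64 FPKM in heated and 0.882 FPKM in unheated wild type. Nfe2l2 and its inhibitor gene Keap1 had interactions of -0.27 and 0.36, and Mafg had -0.29 and did not pass (adjusted p = 0.0583).

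Of 13 tested proteasome-associated genes 3 rose and 5 fell with heat in wild type, 2 rose and 0 fell in CHIP-KO, and 6 had a positive and 1 a negative interaction. The wild-type counts lie near the 28.1% and 30.5% of all genes, and the CHIP-KO counts stand beside 8.65% and 11.4%. The positive and negative interactions stand beside 17.9% and 17.3%. The proteasome-bound deubiquitinase genes Uchl5 and Usp14 had interactions of 0.83 and 0.57, and 0.70 and 0.47 without both wild-type libraries numbered 1. Uchl5 stood at 9.64, 8.39 and 9.17 FPKM in heated CHIP-KO, against 9.06, 8.65 and 7.97 FPKM in unheated CHIP-KO, and at 8.28, 10.3 and 8.41 FPKM in heated wild type, against 17.8, 15.5 and 14.3 FPKM in unheated wild type. Akirin2, needed for nuclear import of proteasomes, had an interaction of 0.57 (adjusted p = 0.0269). Without the heated CHIP-KO library numbered 1 the interaction of Akirin2 was 0.52, no longer called (adjusted p = 0.0588). Zfand2a, a heat-induced proteasome partner, had a log2 heat change of 0.94 in CHIP-KO and 1.03 in wild type. Without the heated library numbered 1 of each genotype it was 0.67 in CHIP-KO, no longer called (adjusted p = 0.101), and 0.69 in wild type (adjusted p = 0.0157). Of 12 tested shuttle factor and Vcp complex genes, which carry ubiquitinated proteins to the proteasome, 9 fell with heat in wild type and 0 rose, 2 rose and 1 fell in CHIP-KO, and 9 had a positive interaction. Over all genes 30.5% fell and 28.1% rose in wild type, 8.65% rose and 11.4% fell in CHIP-KO, and 17.9% had a positive interaction. Leaving out both wild-type libraries numbered 1, 9 fell and 1 rose in wild type, and 8 had a positive and 1 a negative interaction. Over all genes 29.6% fell and 28.0% rose in that fit, and 20.2% had a positive and 19.1% a negative interaction. Vcp itself, the segregase ATPase, averaged 101 ± 2.14 FPKM in heated and 101 ± 1.54 FPKM in unheated CHIP-KO, and 84.6 ± 10.5 FPKM in heated and 143 ± 22.8 FPKM in unheated wild type (SD, n = 3 each). Its interaction was 0.75, and that of the Vcp cofactor gene Nploc4 was 0.60, while both were smaller without those libraries (0.53 and 0.50).

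The immunoproteasome genes, which encode interferon-induced replacements of the proteolytic subunits and an activator, had other calls than the constitutive set in most comparisons. Of 5 genes 4 rose with heat in wild type, where 28.1% of all genes did, and 0 passed in CHIP-KO. All 5 were higher in unheated CHIP-KO (23.9% of all genes), 3 were higher in heated CHIP-KO (23.3%), the direction of the constitutive set there too, and 4 had a negative interaction (17.3%). Psmb8 was under 1 FPKM in all wild-type libraries and passed the filter through CHIP-KO, where it was high. Psmb9 was under 1 FPKM in all unheated wild-type libraries. Too few heated wild-type libraries reached 1 FPKM for Psmb9 to pass the filter without CHIP-KO. The part of Psmb8 and Psmb9 in these counts is therefore no support. Psmb8, the counterpart of Psmb5, averaged 3.74 FPKM in heated and 4.69 FPKM in unheated CHIP-KO, and 0.769 FPKM in heated and 0.0883 FPKM in unheated wild type. Its interaction was -0.96, as was that of Psmb9, the counterpart of Psmb6, and that of the activator gene Psme1 was -0.55. The testis alpha gene Psma8 was at 0 in every library and the thymus beta gene Psmb11 under 1 FPKM. Counting by strand is not stated, so reads of Psmc3 and Slc39a13, of Psmb7 and Nek6, and of Psmd13 with Sirt3 and the pseudogene Gm15542, which overlap, may be shared between them.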

How the data were processed

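RNA was extracted from the fibroblasts and libraries were made by poly(A) capture, per the labels' protocols. HISAT2 is named per the submitters' processing notes, while a version, counting tool, strand setting and annotation were not stated. The authors deposited 1 table of FPKM values with 1 column per sample. Of 54532 genes, 53499 stand at their GENCODE M21 positions, as do all 41 described here, so GRCm38 coordinates apply. Multiplied by gene length, 100% of values came out as whole fragments (tolerance 0.01), which gave the depths.

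The filter kept 13023 genes, those reaching 1 FPKM in 3 or more of the 12 libraries. A limma model (version 3.58.1, R 4.3.3) of log2(FPKM + 1) with a mean per group, a variance trend and all 12 libraries gave two-sided tests. Calls have a Benjamini-Hochberg adjusted p under 0.05 over all genes tested. Changes on this scale are understated for low genes. The steps were tested on simulated data in which all groups had the same spread, so the unequal spread of the real groups was not covered. Alternatives varied the pseudocount, filter, scaling, model and libraries. The text names Nfe2l1, per comparison the 2 genes of each class with the largest change, genes with a set role and, of other lists, up to 3 genes with the largest interaction. Others, such as Sel1l, Maff, Mafk, Nfe2l2 and Zfand2a, were chosen after their values were seen. Genes, lists and motifs were chosen with earlier results of these data known. Plots used matplotlib 3.10.9 (Python 3.11.15).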

Additional observations from a re-analysis of the deposited data

Results flagged for a closer look

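The heat change differed between CHIP-KO and wild type by the interaction term in 35 of the 41 genes, where 17.9% of all genes were positive and 17.3% negative, each with a more positive change in CHIP-KO. On the log2 scale and among the genes with the largest change of their class, this difference was 0.89 for Psmc4 and 0.78 for Psmc1, 0.88 for Psmd2 and 0.88 for Psmd11, 0.84 for Psmb3 and 0.59 for Psmb4. It was 0.76 for Psma7, 0.71 for Psma3, 0.61 for Psme3, 0.44 for Pomp and 0.41 for Psmg2. Without both wild-type libraries numbered 1, Psmc4 was at 0.65 and Psmb4 at 0.39. These genes share their libraries and move together, so they are not separate lines of evidence.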

How the results depend on the processing

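Counts in heated CHIP-KO against unheated CHIP-KO depended on the processing: 2 of 41 genes passed in the fit reported, 36 (all lower) with an equal sum per library, 15 with these groups alone, 23 with library weights, 6 with voom on recovered fragments, 14 without both wild-type libraries numbered 1, and 1 to 5 with each library left out. The share of all genes called was 20.0% in the fit reported, 62.6% lower with an equal sum, 31.0% with these groups alone, 47.6% with library weights, 23.6% with voom and 33.9% without both wild-type libraries. With an equal sum per library, the set median turned to -0.25, and values turned to -0.15 for Psma6 and Psmd8, -0.22 for Psma7, -0.17 for Psmb6, -0.20 for Psmc1, -0.011 for Psmg1, -0.19 for Pomp, -0.28 for Psmb5, -0.18 for Psmd4 and -0.27 for Adrm1. That scaling moved the median of all genes to -0.29 in this comparison, and to -0.21 for heat in wild type. The other 4 counts stayed within 1.5 times under each alternative run, with leave-one-out ranges of 34 to 37 (heat in wild type), 28 to 38 (unheated genotypes), 21 to 30 (heated genotypes) and 34 to 36 (interaction). Same-numbered libraries did not deviate together in each comparison (correlations from -0.12 to 0.335). Between heated CHIP-KO and heated wild type, however, the same-numbered correlations were 0.335, 0.0207 and 0.231, against -0.315 to 0.13 for other pairs. Whether heated libraries of the same number share more than that number was not tested. With a replicate block 37 genes passed for heat in wild type, 2 for heat in CHIP-KO, 33 and 23 for genotype unheated and heated, and 36 for the interaction. In the same order 58.6%, 20.0%, 48.4%, 42.4% and 35.2% of all genes passed with that block. In the other 4 comparisons no called value of a named gene changed sign under the alternatives run, while some that did not pass did: Psmd9 was at 0.0048 for heat in wild type and -0.040 for genotype after heat without both wild-type libraries numbered 1, and Psme4 (genotype after heat) and Nfe2l1 (interaction) were at -0.041 and -0.042 with an equal sum. Psmg1 had the fewest fragments, 350 in its lowest library.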
